A study of Homo sapiens with 6 samples.

Results

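The 10 genes described here encode the cyclin and kinase pair that acts first in G1 and some of the proteins that inhibit it. They are the D cyclins CCND1, CCND2 and CCND3, the kinases CDK4 and CDK6, the Cip/Kip inhibitors CDKN1A, CDKN1B and CDKN1C, and the INK4 inhibitors CDKN2C and CDKN2D. They were found by gene symbol in a deposited table of 58735 genes, and each of the 10 symbols matched 1 gene. The cells were HCT-8, an established human colon cancer line kept in monolayer culture with 10% serum. Of 6 RNA-seq libraries, 3 came from cells given 5-fluorouracil (5-FU), a pyrimidine analogue that starves cells of thymidylate and is misincorporated into nucleic acids, and 3 from cells without treatment. The drug was given at the concentration that inhibits growth by 10%, a low dose chosen to resemble continuous infusion in the clinic. The sources used here do not give the molar concentration or the duration, all 6 libraries come from 1 cell line, and nothing states that libraries of a group came from separate cultures. The p-values below therefore measure only the spread between these libraries, which may be technical.

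D cyclins bind CDK4 or CDK6, and the active pair phosphorylates the retinoblastoma protein, which then releases E2F factors that drive genes of S phase. INK4 proteins bind CDK4 and CDK6 and keep D cyclins out. Cip/Kip proteins inhibit the CDK2 complexes of the next step and can also help D cyclins and their kinases to assemble. CDKN1A, which encodes p21, is a classical target of p53 and a mediator of arrest after DNA damage.

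Gene counts summed to between 18459939 and 20613228 in 5-FU libraries and to between 21659252 and 23495607 in control libraries. The share of counts from genes of the mitochondrial genome was 26.7% ± 1.59 in 5-FU libraries and 4.80% ± 0.12 in control libraries (SD, n = 3 each). With these genes left out, no log2 fold change of the 10 genes moved by more than 0.017. The cell line carried epithelial markers, though unevenly: 10 genes summed to between 3526 and 4491 CPM (the count as a share of its library, scaled between libraries by the TMM method) in 5-FU libraries and to between 4767 and 6595 CPM in control libraries. The most abundant was KRT8, a keratin, at 1905 ± 403 CPM in 5-FU libraries and 2828 ± 517 CPM in control libraries. EPCAM had 241 ± 28.4 CPM in 5-FU libraries and 465 ± 58.2 CPM in control libraries, while CDX1 had at most 12 counts in any library and was not tested. Of the 9 epithelial markers tested, 4 were lower (EPCAM, KRT8, CDX2 and LGALS4), 1 was higher and 4 did not pass. The higher one, KRT20, had 1.95 ± 0.35 CPM in 5-FU libraries and 0.58 ± 0.32 CPM in control libraries. Over all genes in the test described below, 33.9% were lower and 36.3% higher. With upper-quartile factors as the scaling between libraries, 3 of the 9 markers were lower and 2 higher. Markers of other cell types were scarce. The 5 immune genes, of which PTPRC was the most abundant, summed to between 0.611 and 0.835 CPM in 5-FU libraries and to between 0.179 and 0.452 CPM in control libraries. The 4 endothelial genes, led by PECAM1, summed to between 3.55 and 5.55 CPM in 5-FU libraries and to between 2.17 and 3.12 CPM in control libraries. Of 6 fibroblast genes, DCN and LUM were at 0 in every library. The sum of that list, 34.3 to 64.6 CPM in 5-FU libraries and 15.7 to 20.2 CPM in control libraries, was nearly all COL1A1 (42.4 ± 16.1 CPM in 5-FU libraries and 15.2 ± 3.06 CPM in control libraries). The part of these markers in the results below was not tested.

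Of the 10 genes, 2 rose after 5-FU, 7 fell and 1 did not pass the test. CCND2 and CDKN1A rose. CDK4, CDK6, CCND3, CDKN1B, CDKN1C, CDKN2C and CDKN2D fell, and CCND1 did not pass. The test was edgeR's quasi-likelihood test over 19771 genes at a Benjamini-Hochberg adjusted p under 0.05. Because 5-FU changed most of the transcriptome, these counts stand against a high background: 70.2% of all tested genes were called, 36.3% as higher and 33.9% as lower. All 10 genes passed the low-count filter, CCND2 only through its 5-FU libraries, so its call as higher stands in this tally with that limit. The median log2 fold change was -0.71 over the 10 genes and 0.09 over all tested genes. For 9 of the 10 genes no 5-FU library lay within the range of the control libraries, a pattern that 74.3% of tested genes shared. In bulk RNA, fewer cells with a transcript and less of it per cell cannot be told apart. The balance of calls depends on the scaling between libraries, with 7171 genes higher and 6706 lower here, against 9602 higher and 4614 lower with upper-quartile factors, which raise the median of all genes by 0.36 on the log2 scale. Under those factors 3 of the 10 genes were higher and 5 lower.

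**Figure D1:**
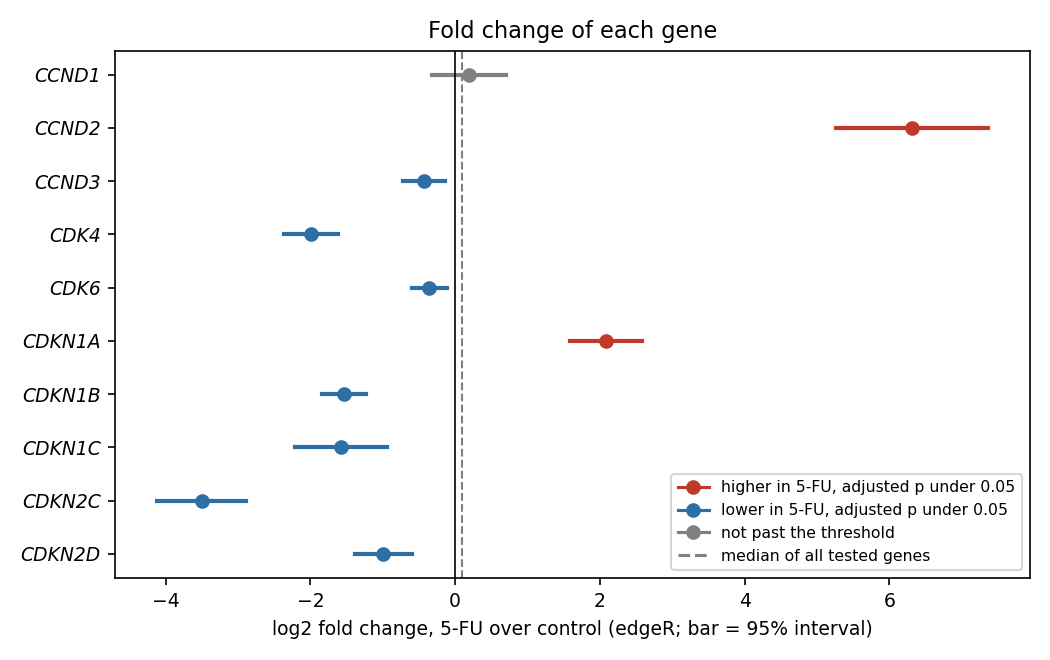
Log2 fold change of each gene, 5-FU over control, on the horizontal axis, with bars for the 95% interval of edgeR's fit (n = 3 libraries per group). CCND2 stands furthest to the right at 6.32 and CDKN2C furthest to the left at -3.51, while the interval of CCND1 crosses 0. The dashed line is the median of all tested genes, 0.09.

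Among the D cyclins, CCND2 rose from near silence in control libraries to a low level after 5-FU. CCND3 fell slightly and CCND1, the most abundant, showed no difference past its spread. CCND2 had 39.3, 17.0 and 15.3 CPM in 5-FU replicates 1, 2 and 3, against 0.404, 0.316 and 0.148 CPM in control replicates 1, 2 and 3. The raw counts were 772, 325 and 324 in the 5-FU libraries and only 9, 7 and 3 in the control libraries. Every 5-FU library stood far above every control library, and replicate 1 was the highest of the 5-FU libraries. CCND2 was higher at a log2 fold change of 6.32 (SE 0.48, edgeR adjusted p = 1.65e-06), but the low-count filter had admitted it through its 5-FU libraries alone. A filter on the mean count over all libraries (at least 50) gave 6.57 (edgeR adjusted p = 6.58e-06). CCND2 passed that filter, too, only through its 5-FU counts. With no low-count filter, where its few control counts were enough for a test, the value was 6.17. In each case the size of the change rests on the few control counts. CCND2 (ENSG00000118971) lies on chromosome 12 at 4273772 to 4305350, plus strand of GRCh38, and 13.8% of its exonic bases are shared with AC008012.1, a gene on the same strand that had 0 counts in every library. CCND2-AS1, an antisense gene whose exons cover 1.8% of those of CCND2, had 8, 12 and 6 counts in 5-FU libraries and 0, 0 and 2 in control libraries. The sources used here do not say whether reads were counted by strand, so reads of a gene and its antisense partner cannot be told apart.

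CCND1, the D cyclin most often overexpressed in cancers and a target of Wnt signalling, had 383, 759 and 613 CPM in 5-FU replicates 1, 2 and 3, against 640, 416 and 482 CPM in control replicates 1, 2 and 3. The groups overlapped fully, and the lowest and the highest of the 6 values were both in 5-FU libraries. The log2 fold change was 0.19 (95% interval -0.32 to 0.70, edgeR adjusted p = 0.48), which leaves room for a change in either direction. That value depended on single libraries. It was 0.44 and passed without 5-FU replicate 1 (edgeR adjusted p = 0.0469), and it was -0.05 without 5-FU replicate 2. With upper-quartile factors it also passed, at 0.55 (edgeR adjusted p = 0.042). Opposite-strand exons of LTO1, which had 46.5 ± 7.36 CPM in 5-FU libraries and 32.0 ± 1.82 CPM in control libraries, cover 10.3% of the exonic bases of CCND1 (ENSG00000110092, chromosome 11 at 69641087 to 69654474, plus strand).

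CCND3, the D cyclin best known from lymphoid cells, had 29.2, 32.6 and 32.0 CPM in 5-FU replicates 1, 2 and 3, against 46.3, 35.5 and 44.3 CPM in control replicates 1, 2 and 3. CCND3 (ENSG00000112576) lies on chromosome 6 at 41934933 to 42050357, minus strand. The groups did not overlap, but the highest 5-FU library (32.6 CPM) lay close to the lowest control library (35.5 CPM). CCND3 was lower by edgeR (log2 fold change -0.43, SE 0.13, adjusted p = 0.0125). It no longer passed under upper-quartile factors (-0.07, edgeR adjusted p = 0.632) and at a mean count of at least 50 (-0.18, edgeR adjusted p = 0.219).

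**Figure D2:**
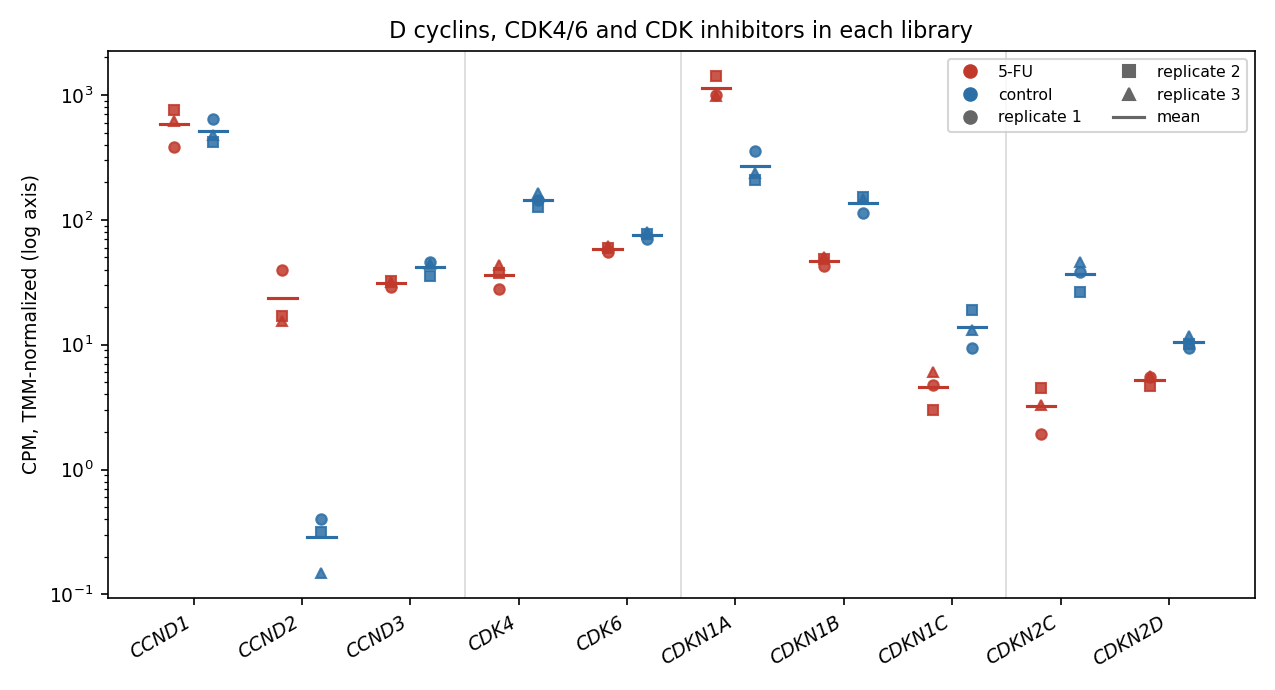
Level of each gene in each library, in TMM-normalized CPM on a log axis; each symbol is a library, red for 5-FU and blue for control, and the short lines are group means (n = 3). CCND2 spans 0.148 to 39.3 CPM between the groups, and CCND1 is the only gene whose red and blue symbols intermingle.

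Within a library the D cyclins can be set against each other as counts per gene length, which does not depend on the scaling between libraries. CCND1 made up 92.6% ± 3.75 of the summed D cyclin level in 5-FU libraries and 93.5% ± 0.72 in control libraries (SD, n = 3 each), so it remained the main D cyclin transcript. CCND2 made up 6.12%, 1.43% and 1.59% in 5-FU replicates 1, 2 and 3, against 0.040%, 0.048% and 0.019% in control replicates 1, 2 and 3. The 5-FU mean of 3.05% became 1.51% without replicate 1. CCND3 made up 4.37% ± 1.13 in 5-FU libraries and 6.47% ± 0.73 in control libraries. The log2 ratio of CCND3 to CCND1 averaged -4.44 ± 0.42 in 5-FU libraries and -3.86 ± 0.18 in control libraries. The difference of -0.58 was not past the spread between libraries (exact two-sided permutation p = 0.2, adjusted p = 0.2 over the 3 ratios tested). With 3 libraries against 3 such a test cannot go below 0.1.

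**Figure D3:**
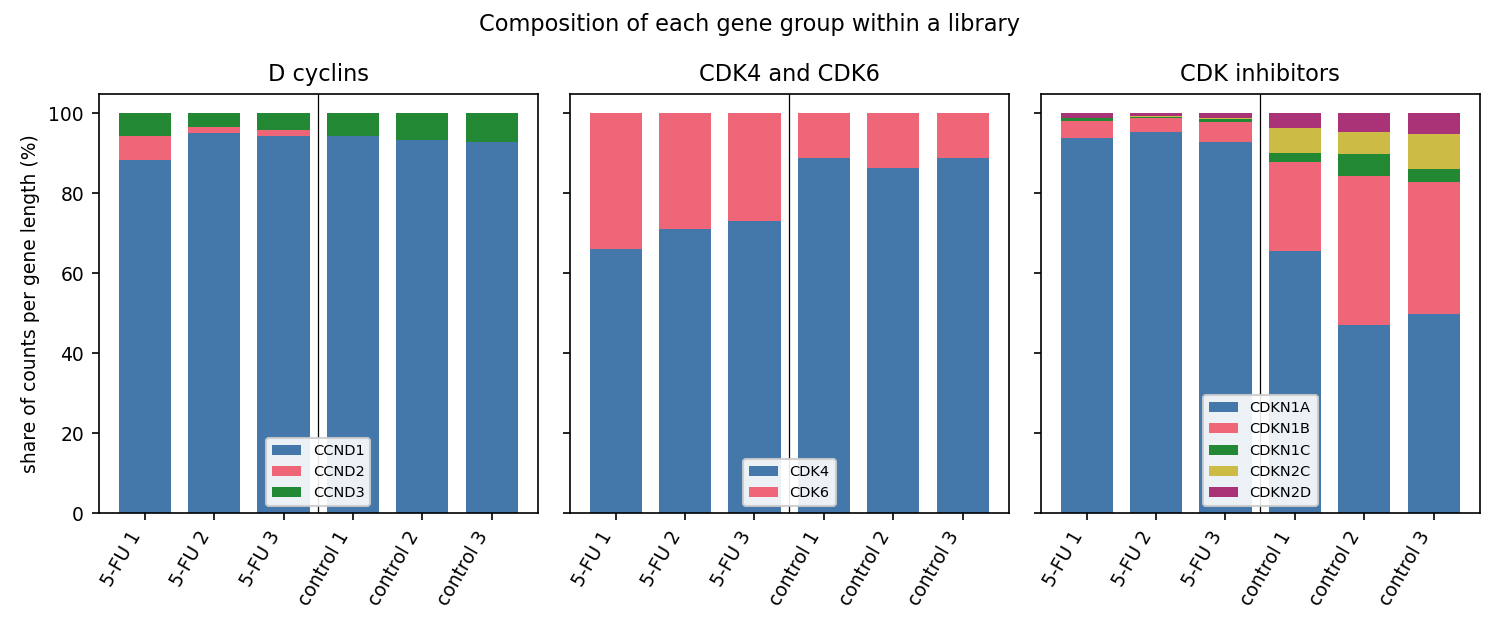
Share of each gene in the summed counts per gene length of its group within a library, in percent, for D cyclins, the 2 kinases and the CDK inhibitors, with the 3 5-FU libraries left of the 3 control libraries in each panel. CCND1 fills most of every D cyclin bar, CDK6 takes between 26.8% and 34.0% in 5-FU libraries against 11.2% to 13.6% in control libraries, and CDKN1A takes 92.8% or more of the inhibitor bars after 5-FU.

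Of the kinases, CDK4 fell 3.98-fold and CDK6 fell 1.28-fold. CDK4 had 28.0, 37.6 and 43.7 CPM in 5-FU replicates 1, 2 and 3, against 145, 126 and 164 CPM in control replicates 1, 2 and 3. The groups were far apart, with the highest 5-FU library well below the lowest control library. On the log2 scale this was -1.99 (SE 0.17, edgeR adjusted p = 2.90e-06), and it ranged from -2.16 to -1.63 over all alternatives. CDK4 (ENSG00000135446) lies on chromosome 12 at 57747727 to 57756013, minus strand, where it meets TSPAN31, a tetraspanin gene on the plus strand. Exons of TSPAN31 cover 43.2% of the exonic bases of CDK4. TSPAN31 itself had 21.7 ± 3.14 CPM in 5-FU libraries and 19.4 ± 2.11 CPM in control libraries (log2 fold change 0.16, edgeR adjusted p = 0.343), so the reads assigned to the partner did not fall with those of CDK4. How reads in the shared stretch were assigned cannot be read from the table.

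CDK6 had 55.7, 59.0 and 62.0 CPM in 5-FU replicates 1, 2 and 3, against 70.4, 76.8 and 79.5 CPM in control replicates 1, 2 and 3. CDK6 (ENSG00000105810) lies on chromosome 7 at 92604921 to 92836594, minus strand. The libraries of each group lay close together and the groups did not overlap. In the edgeR fit the log2 fold change of CDK6 was -0.36 (SE 0.11, adjusted p = 0.0122). This call depended on the scaling: it was lost with upper-quartile factors (-0.0024, edgeR adjusted p = 0.985), with plain library totals (-0.25, edgeR adjusted p = 0.0554) and at a mean count of at least 50 (-0.11, edgeR adjusted p = 0.353).

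The ratio of the kinases to each other is free of that choice. CDK6 per CDK4, as counts per gene length, was 0.515, 0.405 and 0.366 in 5-FU replicates 1, 2 and 3, against 0.126, 0.157 and 0.126 in control replicates 1, 2 and 3. The log2 ratio was 1.65 higher in 5-FU libraries, a 3.13-fold shift towards CDK6 that every 5-FU library showed (exact two-sided permutation p = 0.1, the smallest possible; adjusted p = 0.15 over the 3 ratios). CDK4 nonetheless stayed the more abundant kinase transcript per length in all 6 libraries, at 70.1% ± 3.70 of the sum in 5-FU libraries and 88.0% ± 1.38 in control libraries.

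The Cip/Kip inhibitors moved in opposite directions: CDKN1A rose 4.25-fold, while CDKN1B fell 2.89-fold and CDKN1C 2.99-fold. CDKN1A had 996, 1427 and 986 CPM in 5-FU replicates 1, 2 and 3, against 356, 207 and 239 CPM in control replicates 1, 2 and 3. Every 5-FU library was above every control library, with replicate 2 the highest after 5-FU and replicate 1 the highest among controls. In the edgeR fit the log2 fold change of CDKN1A was 2.09 (SE 0.23, adjusted p = 1.17e-05), and it ranged from 1.88 to 2.45 over all alternatives. CDKN1A (ENSG00000124762) lies on chromosome 6 at 36676460 to 36687339, plus strand. Exons of DINOL, a noncoding gene on the opposite strand, cover 4.8% of the exonic bases of CDKN1A. DINOL had 19, 28 and 15 counts in 5-FU libraries and 0, 1 and 2 in control libraries. It passed the low-count filter only through its 5-FU libraries, so its call as higher is not used.

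CDKN1B encodes p27, an inhibitor of CDK2 complexes that accumulates in resting cells mainly through protein stability. Its transcript had 42.6, 48.2 and 50.8 CPM in 5-FU replicates 1, 2 and 3, against 112, 152 and 146 CPM in control replicates 1, 2 and 3. The groups were well apart (log2 fold change -1.53, SE 0.14, edgeR adjusted p = 4.23e-06). CDKN1C, an imprinted gene that encodes p57, was less abundant, with 4.79, 3.03 and 6.01 CPM in 5-FU replicates 1, 2 and 3, against 9.42, 19.0 and 13.03 CPM in control replicates 1, 2 and 3. The groups did not overlap, with a wide spread among controls (log2 fold change -1.58, SE 0.29, edgeR adjusted p = 0.000487). KCNQ1OT1, the long noncoding RNA of the imprinted domain that holds CDKN1C, was higher at 60.6 ± 12.1 CPM in 5-FU libraries and 35.3 ± 6.99 CPM in control libraries (log2 fold change 0.78, SE 0.17, edgeR adjusted p = 0.00174). CDKN1B (ENSG00000111276) lies on chromosome 12 at 12715058 to 12722371, plus strand, and CDKN1C (ENSG00000129757) on chromosome 11 at 2883213 to 2885773, minus strand. The call of KCNQ1OT1 was lost on log2(FPKM + 1) without a filter (limma adjusted p = 0.16). Its entry is 91667 bases long, at 0.62 ± 0.10 FPKM in 5-FU libraries and 0.40 ± 0.07 FPKM in control libraries. Since the strand setting is not known, reads from the opposite strand in that stretch cannot be told apart from its own.

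Within a library the shift between p21 and p27 transcripts was large. CDKN1A per CDKN1B, as counts per gene length, was 21.6, 27.3 and 17.9 in 5-FU replicates 1, 2 and 3, against 2.92, 1.26 and 1.51 in control replicates 1, 2 and 3. The log2 ratio was 3.63 higher in 5-FU libraries (exact two-sided permutation p = 0.1, the smallest possible; adjusted p = 0.15 over the 3 ratios). CDKN1A made up 94.0% ± 1.29 of the summed level of the 5 inhibitors per length in 5-FU libraries and 54.1% ± 9.95 in control libraries. CDKN1B made up 4.35% ± 0.84 in 5-FU libraries and 31.0% ± 7.70 in control libraries. These shares describe transcripts only.

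Both INK4 inhibitors among the 10 genes fell, CDKN2C the most of all 10, and the rest of the INK4 family is not described here. CDKN2C, which encodes p18, had 1.94, 4.49 and 3.27 CPM in 5-FU replicates 1, 2 and 3, against 37.95, 26.3 and 45.8 CPM in control replicates 1, 2 and 3. Counts were 38, 86 and 69 in the 5-FU libraries and 846, 582 and 929 in the control libraries, so that even the lowest control library held far more counts than any 5-FU library. CDKN2C was 11.4-fold lower (log2 fold change -3.51, SE 0.28, edgeR adjusted p = 2.26e-06), and only 0.303% of tested genes had a lower one. CDKN2C (ENSG00000123080) lies on chromosome 1 at 50960745 to 50974633, plus strand, and shares no exonic bases with another annotated gene. CDKN2D, which encodes p19 of the INK4 family, had 5.55, 4.64 and 5.59 CPM in 5-FU replicates 1, 2 and 3, against 9.42, 10.2 and 11.8 CPM in control replicates 1, 2 and 3. CDKN2D (ENSG00000129355) lies on chromosome 19 at 10566462 to 10569059, minus strand. Again the groups did not overlap (log2 fold change -0.99, SE 0.18, edgeR adjusted p = 0.000432).

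Set against CDK4 and CDK6, the summed CDKN2C and CDKN2D transcripts of the groups lay close together. CDKN2C and CDKN2D together, per summed CDK4 and CDK6 and per gene length, came to 0.320, 0.266 and 0.249 in 5-FU replicates 1, 2 and 3, against 0.344, 0.318 and 0.373 in control replicates 1, 2 and 3. The groups overlapped, since 5-FU replicate 1 lay just above control replicate 2. This sum joins genes that changed to unlike degrees. CDKN2C fell 11.4-fold and CDKN2D 1.99-fold, against 3.98-fold for CDK4 and 1.28-fold for CDK6. The closeness of the summed values therefore does not describe either inhibitor alone. D cyclins per summed CDK4 and CDK6 came to 6.72, 9.90 and 7.14 in 5-FU replicates 1, 2 and 3, against 2.73, 1.999 and 1.85 in control replicates 1, 2 and 3. CDKN1A per CDK4 came to 37.0, 39.4 and 23.4 in 5-FU replicates 1, 2 and 3, against 2.56, 1.70 and 1.52 in control replicates 1, 2 and 3. These sums and ratios were chosen after the values were seen and are given without a test.

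The order of levels per length, in the deposited FPKM (counts over gene length and a constant per library), differed between the groups. After 5-FU, CDKN1A led at 350.5 ± 84.2 FPKM, followed by CCND1 at 114 ± 39.8, CDKN1B at 15.8 ± 1.88 and CDK4 at 10.8 ± 2.65 FPKM, and each of these lay above the next in every 5-FU library. Below them, the ranges of CCND3 and CDK6 overlapped, though CCND3 was the higher within each 5-FU library. CDKN2D, CCND2, CDKN1C and CDKN2C followed, the range of each overlapping the next. CDKN2C was last at 0.92 ± 0.38 FPKM. In control libraries the ranges of CCND1 (110 ± 26.0 FPKM) and CDKN1A (91.1 ± 27.8 FPKM) overlapped at the top. Within each control library, however, CCND1 lay above CDKN1A. Behind them the ranges of CDKN1B (50.4 ± 7.35 FPKM) and CDK4 (47.5 ± 6.79 FPKM) overlapped, and their order differed between libraries. CDKN2C, CCND3, CDKN2D, CDK6 and CDKN1C followed between 11.5 and 5.76 FPKM, the range of each overlapping the next. Within each control library CDKN2C nonetheless lay above CCND3, and CDKN2D above CDK6. CCND2 came last at 0.042 ± 0.019 FPKM, below the others in every library.

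Promoter windows of RefSeq (GRCh38.p14), 250 bases before to 50 after a gene's start, matched 7 of the 10 genes with 12 windows. CCND1, CCND2 and CDKN1C were not matched. Shown are the 4 genes with a single window, because they set the inhibitor that rose beside 2 inhibitors and a kinase that fell. They lie at chr6:36678464-36678763 on the plus strand (CDKN1A), chr12:12717118-12717417 on the plus strand (CDKN1B), chr12:57752261-57752560 on the minus strand (CDK4) and chr19:10568930-10569229 on the minus strand (CDKN2D). Capitals mark GC boxes (GGGCGG) and CCAAT boxes on either strand, which overlap in places, and each sequence reads 5′ to 3′ along its gene.
CDKN1A: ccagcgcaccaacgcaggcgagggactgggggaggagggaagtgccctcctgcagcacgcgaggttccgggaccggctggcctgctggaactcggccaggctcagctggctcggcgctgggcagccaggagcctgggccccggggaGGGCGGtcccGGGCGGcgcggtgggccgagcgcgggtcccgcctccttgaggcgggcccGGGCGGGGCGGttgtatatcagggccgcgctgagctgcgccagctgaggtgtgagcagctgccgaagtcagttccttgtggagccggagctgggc
CDKN1B: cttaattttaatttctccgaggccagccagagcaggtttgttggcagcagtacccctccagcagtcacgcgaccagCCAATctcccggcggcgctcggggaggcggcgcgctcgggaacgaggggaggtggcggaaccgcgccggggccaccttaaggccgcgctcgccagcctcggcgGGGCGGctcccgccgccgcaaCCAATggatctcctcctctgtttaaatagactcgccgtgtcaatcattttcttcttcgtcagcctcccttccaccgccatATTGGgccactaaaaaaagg
CDK4: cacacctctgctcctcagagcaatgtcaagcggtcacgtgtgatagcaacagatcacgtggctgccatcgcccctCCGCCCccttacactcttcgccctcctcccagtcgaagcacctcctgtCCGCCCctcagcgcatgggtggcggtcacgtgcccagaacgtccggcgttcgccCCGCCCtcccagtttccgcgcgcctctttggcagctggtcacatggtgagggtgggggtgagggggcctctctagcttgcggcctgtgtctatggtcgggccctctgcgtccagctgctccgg
CDKN2D: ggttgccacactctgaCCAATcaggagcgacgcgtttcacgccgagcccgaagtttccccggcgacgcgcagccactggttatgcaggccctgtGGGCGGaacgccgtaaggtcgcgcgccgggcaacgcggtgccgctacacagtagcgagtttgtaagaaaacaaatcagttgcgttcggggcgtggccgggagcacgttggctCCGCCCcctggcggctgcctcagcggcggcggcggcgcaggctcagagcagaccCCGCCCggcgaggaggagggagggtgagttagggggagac
A GC box, the site of Sp1-type factors, stood in all 4 windows shown, in 9 of the 12 windows and in 44.95% of 35116 promoter windows of the same length. CDKN1A, which rose, held 4 of them in the bases shown, and of those that fell CDK4 and CDKN2D held 3 each and CDKN1B 1. In windows not shown, of genes that also fell, CDKN2C held 0 to 6, CCND3 0 to 5 and CDK6 0 to 3. The number of GC boxes thus did not separate CDKN1A from the genes that fell. G and C made up 74.3% of the window of CDKN1A, 62.3% of CDKN1B, 66.0% of CDK4 and 68.0% of CDKN2D. They made up 46.3% to 78.0% over the 12 windows, against a median of 58.7% over all windows. The part of this base content in the share with a GC box was not tested. The CCAAT box stood in CDKN1B and CDKN2D, in 5 of the 12 windows and in 34.61% of all windows. The E2F motifs TTTCGCGC, TTTGGCGC and TTTCCCGC, the TATA box TATAAA, the cAMP response element TGACGTCA and the p53 half-site consensus were each found in 0 of the 12 windows. They stood in 0.52%, 0.65%, 1.63%, 11.53%, 1.85% and 6.63% of all windows in that order. A match says only that these letters are there, and the lack of one says nothing of the factor.

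Genes next to these 10 in the pathway mostly fell. No member of the list of CDK2 cyclins and the CDK activating kinase rose and 6 of 8 fell, at a median log2 fold change of -1.06, where 33.9% of all tested genes were lower. CCNA2, the cyclin of S phase, had 9.41 ± 1.26 CPM in 5-FU libraries and 126 ± 41.7 CPM in control libraries (log2 fold change -3.74, edgeR adjusted p = 8.11e-07). Its kinase CDK2 had 31.2 ± 5.18 CPM in 5-FU libraries and 83.4 ± 13.6 CPM in control libraries (-1.42), and MNAT1, a subunit of the activating kinase, fell by 1.24 on the log2 scale. Opposite-strand exons cover 37.1% of the exonic bases of CCNE2, 22.3% of CCNH, 16.8% of CDK2 and 9.1% of CCNA2. The E cyclins did not pass: CCNE1, named after its value was seen, had 11.2 ± 0.89 CPM in 5-FU libraries and 14.6 ± 4.33 CPM in control libraries (edgeR adjusted p = 0.134), and CCNE2, named likewise, had 7.61 ± 0.59 CPM in 5-FU libraries and 10.3 ± 4.98 CPM in control libraries (edgeR adjusted p = 0.217).

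Of 13 pocket proteins and E2F factors 9 fell and 0 rose, at a median of -0.71, against the same 33.9% lower over all tested genes, and with upper-quartile factors 6 fell and 0 rose. TFDP1, the dimer partner of E2F factors, fell by 1.93 on the log2 scale, E2F1 by 2.40 and E2F2 by 2.84, both activators of S phase genes. RB1, the substrate of CDK4 and CDK6, named after its value was seen, had 51.0 ± 2.12 CPM in 5-FU libraries and 100.3 ± 10.9 CPM in control libraries (-0.98, SE 0.12, edgeR adjusted p = 2.71e-05). Of 15 genes that turn over D cyclins and CDK inhibitors 13 fell and 0 rose, at a median of -1.05 (33.9% lower over all tested genes), against 9 lower and 1 higher with upper-quartile factors. CKS1B, the cofactor that lets the SKP2 ligase recognise p27, fell by 2.94 on the log2 scale. Its 6 annotated pseudogenes summed to 43, 36 and 25 counts in 5-FU libraries and 35, 45 and 48 in control libraries, against 187, 263 and 309 counts of CKS1B itself in 5-FU libraries and 2181, 1651 and 2384 in control libraries. How reads that fit both were assigned is not known, so its value is uncertain. DDB1, an adaptor of CUL4 ligases, fell by 1.35 and RBX1, the RING subunit of cullin ligases, by 1.41. SKP2 itself, named after its value was seen, had 18.9 ± 1.15 CPM in 5-FU libraries and 62.6 ± 15.2 CPM in control libraries (-1.73, edgeR adjusted p = 7.43e-06).

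In contrast, 8 of 9 p53 targets of arrest and feedback rose and 0 fell, at a median of 0.92, where 36.3% of all tested genes were higher. CCNG1, another known p53 target, which stood in the list of cyclins outside the G1 step and was named after its value was seen, fell to 90.5 ± 18.9 CPM in 5-FU libraries, against 217 ± 20.3 CPM in control libraries (-1.26, edgeR adjusted p = 3.49e-05). MDM2, the ligase that limits p53, had 808 ± 127 CPM in 5-FU libraries and 128 ± 36.1 CPM in control libraries (2.66), and the kinase PLK3 (1.87) and the RNA-binding protein ZMAT3 (1.22) rose as well. Transcription factors known to act on the 10 genes rose for 2 of 12 and fell for 5, where 36.3% of all tested genes were higher and 33.9% lower. Their median of -0.20 turned to 0.15 with upper-quartile factors and to 0.05 at a mean count of at least 50. Among those of smallest p, MYC and TP73 were lower: MYC, which can repress CDKN1A and CDKN1B, at 64.3 ± 13.4 CPM in 5-FU libraries and 200.03 ± 9.57 CPM in control libraries (-1.64), and TP73, a p53 family member, had 5.55 ± 1.18 CPM in 5-FU libraries and 24.3 ± 7.67 CPM in control libraries (-2.13). Cyclins and CDKs outside the G1 step went both ways, with 7 higher and 13 lower of 22 tested at a median of -0.42. Over all tested genes 36.3% were higher and 33.9% lower. With upper-quartile factors 7 of the list were higher and 7 lower, where 9602 of 19771 tested genes were higher and 4614 lower. CCNY, a membrane-associated cyclin (-1.29), CCNI, an atypical cyclin (-1.30), and CDK8, a kinase of the Mediator complex (-1.11), had the smallest p. Of 6 listed noncoding genes beside the members 4 were in the table and 2 were tested, KCNQ1OT1, which was higher, and DINOL, which entered only through its 5-FU libraries.

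**Figure D4:**
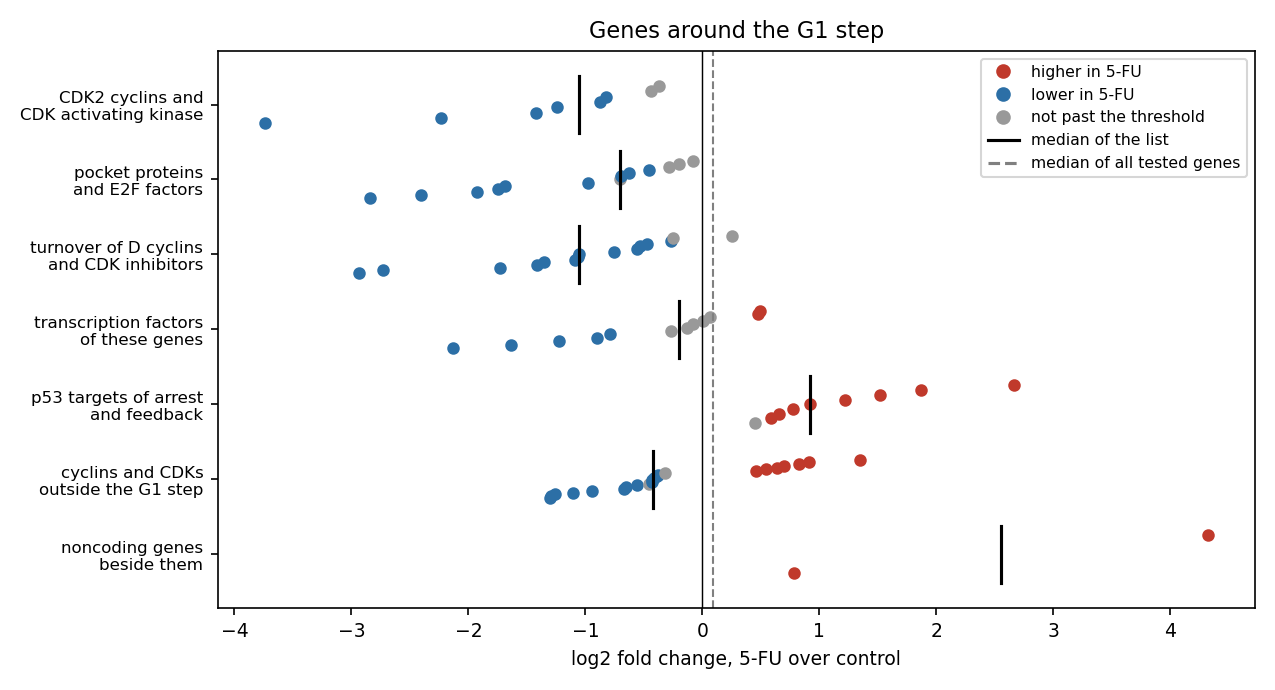
Log2 fold changes, 5-FU over control, of tested genes in 7 lists around the G1 step; each point is a gene, red where higher, blue where lower and grey where the test was not passed, the black bar is the median of the list and the dashed line the median of all tested genes (0.09). The list of p53 targets lies right of 0 at a median of 0.92, and the list of CDK2 cyclins lies left of 0 at -1.06.

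The genes whose pattern over the 6 libraries was most like that of CCND2 were ZFP57 (Pearson r = 0.9996) and ZMYM6 (0.9987), out of 11417 protein-coding genes whose counts averaged 100 or more. The correlation is of log2 CPM, and its 6 points share libraries and fall into 2 groups, so that it mainly reflects the group difference and is given without a test. Both were highest in 5-FU replicate 1, as CCND2 was, but the choice by correlation over these same libraries favours such an order. ZFP57 had 47.7 ± 4.83 CPM in 5-FU libraries and 19.2 ± 1.62 CPM in control libraries, and ZMYM6 had 22.4 ± 1.93 CPM in 5-FU libraries and 10.2 ± 0.49 CPM in control libraries.

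**Figure D5:**
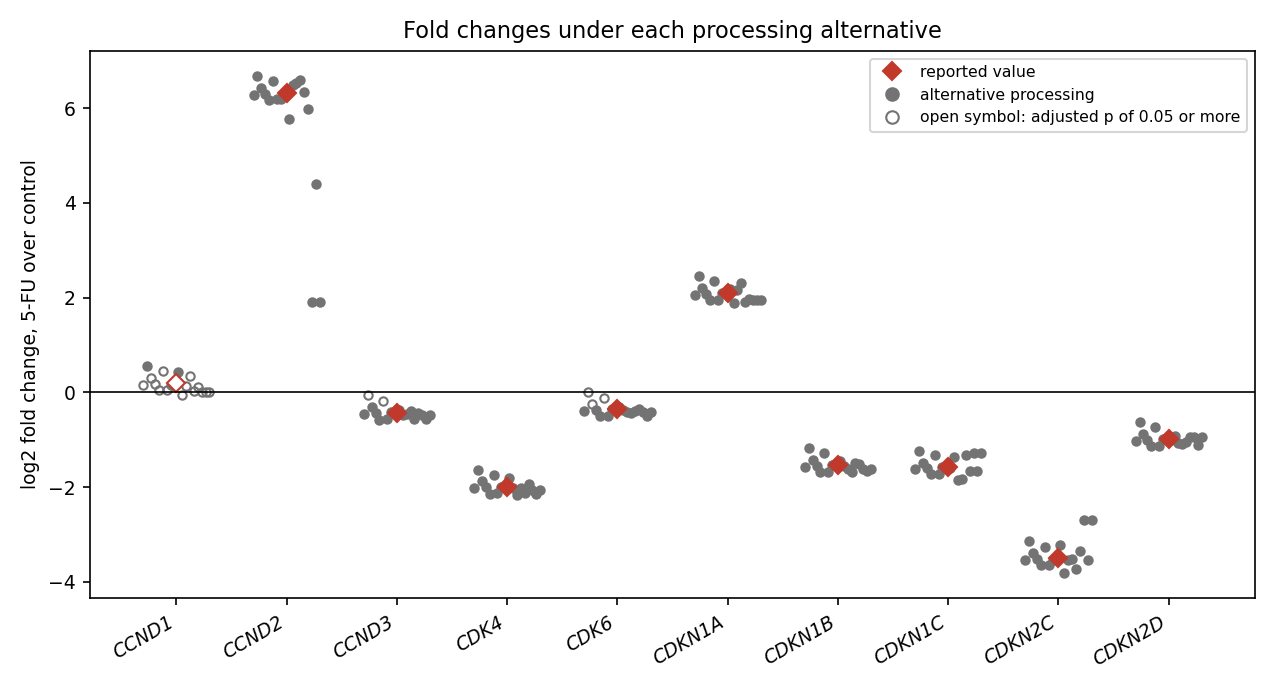
Log2 fold change of each gene, 5-FU over control, as reported (diamonds; open for CCND1, which was not called) and under each of 18 processing alternatives (circles, open where the adjusted p was 0.05 or more). CCND1, CCND3 and CDK6 lie near 0 and have open circles, whereas the other genes keep filled circles on 1 side of 0; the low values of CCND2, down to 1.90, come from log2(FPKM + 1).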

How the data were processed

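Gene expression was measured by RNA sequencing in 6 libraries. Cells were lysed in TRIzol and the kit was NEBNext Ultra, per the labels' protocols. Build GRCh38 was used, and featureCounts 1.5.0-p3, HISAT2 2.0.5 and DESeq2 1.16.1 are named, per the submitters' processing notes. The sources used here do not give the strand setting or the treatment of multi-mapping reads. The authors deposited whole-number counts per gene and FPKM. Checked on the values, the authors' deposited FPKM equal the count divided by gene length and by 1 constant per library, 1.07 to 1.16 times the count total in 5-FU libraries and 0.892 to 0.986 times in control libraries. All 58735 genes matched GENCODE release 29 by identifier and position. Libraries within a group differed beyond counting noise (mean chi-square per gene 9.02 to 23.4), so none were merged.

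Groups came from the treatment label. Counts were tested with edgeR 4.0.16 in R 4.3.3 (filterByExpr with minimum count 10 and minimum total 15, TMM factors, group alone, Benjamini-Hochberg over 19771 genes). Each SE was obtained from the coefficient without prior counts and the root of its F statistic. Ratios within a library used 0.5 added counts and an exact permutation test in scipy 1.17.1. Alternatives used limma 3.58.1 and DESeq2 1.42.0. The test was checked on simulated counts in which few genes changed, unlike these data, so that check says nothing of the scaling between libraries. The genes and lists were chosen with earlier results of these data known. The rule for named genes took the 10 genes, up to 3 of smallest p among those that passed in each list (or the 2 most abundant), the most abundant of each marker list, and the 3 most like CCND2, 37 in all, of which 2 are not reported here.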

Additional observations from a re-analysis of the deposited data

How the results depend on the processing

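Of the 10 genes, CCND2, CDK4, CDKN1A, CDKN1B, CDKN1C, CDKN2C and CDKN2D kept their direction and stayed past the threshold in all 18 alternatives: RLE, upper-quartile and plain totals as scaling, no mitochondrial genes, no filter or a mean count of at least 50, DESeq2, limma-voom, the replicate block, each library left out, and 3 limma fits of log2 FPKM. Pseudocounts shrink low genes there: CCND2 was 1.90 on log2(FPKM + 1) and 4.39 on log2(FPKM + 0.1). In the fits with a count or FPKM filter CCND2 entered only through its 5-FU libraries, so its calls there are no separate support. The log2 fold change of CCND1 spanned -0.047 (without 5-FU replicate 2, where it reversed) to 0.438 (without 5-FU replicate 1, where it passed) with 1 library left out. The calls of CCND3 and CDK6 were lost in 2 and 3 alternatives, given above. At a mean count of at least 50, TMM was computed anew, which raised the shared genes by 0.25 (log2); whether that alone ended those calls was not tested. The count of higher genes was 4320 on log2(FPKM + 1) and 4268 on log2(FPKM + 0.1), both with a filter at FPKM of at least 1 in 3 libraries, against 7171; log2(FPKM + 1) without that filter gave 6926, so the lower count came with the filter. The CCND2 share in control libraries was 0.052% from plain counts, against 0.036% per length. With the replicate number as a block, 6863 genes were higher and 6380 lower, and the calls of the 10 genes did not change. Same-numbered libraries did not deviate together (correlations -0.072, -0.202 and 0.060), so the numbers were not taken as pairs. CCND2 in control libraries, with 3 to 9 counts, is the value that depth limits most among the 10 genes.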
